A study of Mus musculus with 11 samples.

Results

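The 27 genes described here build the hair shaft and the sheath around it, or regulate that programme. They were found by gene symbol among the 24411 genes of the deposited files, and all 27 were present: 7 inner root sheath keratins (Krt25, Krt26, Krt27, Krt28, Krt71, Krt72 and Krt73), the companion layer keratin Krt75, 7 type I shaft keratins (Krt31, Krt32, Krt33a, Krt33b, Krt34, Krt35 and Krt36), 5 type II shaft keratins (Krt81, Krt82, Krt83, Krt85 and Krt86), 3 other structural or modifying proteins (Tchh, Dsg4 and Padi3) and 4 transcription factors (Hoxc13, Foxn1, Msx2 and Dlx3). Their RNA was measured in 11 samples of mouse back skin with total RNA libraries. In 4 samples the host had received tdTomato-positive marrow cells, and in 7 samples tdTomato-negative marrow cells, sorted from femurs of Pdgfra-Cre;tdTomato donors. In such donors tdTomato marks cells that express Cre under Pdgfra control or descend from such cells. All hosts were of the strain Tg(act-EGFP)Y01Osb, which carries an EGFP transgene, had an age of 16 to 18 in a unit the labels do not give, and were irradiated with 10 Gy before the transplant. In every sample dermatitis was induced after 6 weeks of recovery by 6 applications of MC903 (calcipotriol), a vitamin D analog, and skin was taken on day 14. Skin without MC903 or without a transplant was not analysed here, so both groups share the irradiation and the dermatitis.

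Hair is made in the bulb of the growing follicle, where dividing matrix cells give rise to concentric layers. The inner root sheath moulds and guides the shaft, and is built from its own type I and type II keratins together with trichohyalin, whereas the cortex and cuticle of the shaft contain another set of keratins. The layers named for single keratins below are best known from human follicles. A keratin filament needs a type I and a type II partner in equal amounts. Most of these genes are transcribed in the growth phase of the hair cycle and are silent in the resting phase, and calcipotriol acts on a receptor, Vdr, that skin needs for hair cycling.

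The genes lie mostly in a pair of keratin clusters on GRCm38.p6. Type I members were on chromosome 11, Krt25 to Krt28 between 99315516 and 99374903 and Krt31 to Krt36 between 100011199 and 100109487, and type II members on chromosome 15 between 101459061 and 101802360. Krt85 was not in the gene table used, so its position is not given. Tchh was on chromosome 3 from 93442330 to 93449077, Padi3 on chromosome 4 from 140785369 to 140810648, Foxn1 on chromosome 11 from 78357577 to 78386783, and Dlx3 on chromosome 11 from 95120117 to 95125296. Msx2 was on chromosome 13 from 53466881 to 53472780, and Hoxc13 on chromosome 15 from 102921131 to 102928814.

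Promoters of RefSeq on GRCm38.p6, from 250 bases before to 50 bases after the start of each gene, were matched for 18 of the 27 genes. A set of 5 is shown, 2 of the inner root sheath, 2 of the shaft and trichohyalin, as examples of these roles. Capitals mark TATAAA, the common spelling of the TATA box, and CTTTGA, the core of sites bound by LEF1 and related factors (TCAAAG where it lies on the other strand). Both were searched on both strands, and their letters cannot overlap.
Krt25 promoter, chr11:99322902-99323201 (minus strand): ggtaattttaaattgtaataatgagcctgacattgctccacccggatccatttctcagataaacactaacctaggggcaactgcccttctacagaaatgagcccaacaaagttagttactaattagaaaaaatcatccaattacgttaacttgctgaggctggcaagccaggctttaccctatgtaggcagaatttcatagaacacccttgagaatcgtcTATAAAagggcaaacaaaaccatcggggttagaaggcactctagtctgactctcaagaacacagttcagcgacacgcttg
Krt71 promoter, chr15:101743048-101743347 (minus strand): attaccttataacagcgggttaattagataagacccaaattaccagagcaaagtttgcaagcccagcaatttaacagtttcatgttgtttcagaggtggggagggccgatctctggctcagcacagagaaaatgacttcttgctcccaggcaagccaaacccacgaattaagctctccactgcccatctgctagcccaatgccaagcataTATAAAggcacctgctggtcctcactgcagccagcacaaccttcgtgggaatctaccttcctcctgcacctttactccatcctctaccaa
Krt31 promoter, chr11:100050502-100050801 (minus strand): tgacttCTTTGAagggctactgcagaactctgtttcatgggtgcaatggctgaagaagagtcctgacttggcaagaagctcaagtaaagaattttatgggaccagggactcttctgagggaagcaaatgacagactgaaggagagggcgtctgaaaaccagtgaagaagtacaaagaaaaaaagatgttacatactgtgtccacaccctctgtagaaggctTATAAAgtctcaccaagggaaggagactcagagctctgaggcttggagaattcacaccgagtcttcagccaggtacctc
Krt33b promoter, chr11:100029819-100030118 (minus strand): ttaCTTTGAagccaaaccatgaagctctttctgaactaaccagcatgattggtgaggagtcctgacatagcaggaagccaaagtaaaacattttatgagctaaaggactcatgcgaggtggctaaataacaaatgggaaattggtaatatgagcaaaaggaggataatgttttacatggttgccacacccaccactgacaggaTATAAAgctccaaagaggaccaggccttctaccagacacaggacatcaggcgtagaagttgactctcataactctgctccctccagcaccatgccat
Tchh promoter, chr3:93442080-93442379 (plus strand): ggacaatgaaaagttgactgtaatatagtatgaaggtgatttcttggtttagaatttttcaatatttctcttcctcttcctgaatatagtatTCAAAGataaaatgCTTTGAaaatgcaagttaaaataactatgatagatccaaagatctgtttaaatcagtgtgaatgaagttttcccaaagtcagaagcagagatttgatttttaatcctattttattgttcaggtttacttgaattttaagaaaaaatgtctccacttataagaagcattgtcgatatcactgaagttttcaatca
TATAAA occurred in 11 of the 18 promoters (61.1%), against 13.6% of all 32851 promoters of this length. On the gene's own strand, with all its letters 40 to 16 bases before the start, it stood in 8 of 18 (Krt25, Krt26, Krt28, Krt71, Krt73, Krt31, Krt32 and Krt34), against 1.99% of all promoters. Its first base lay exactly 30 bases before the start in Krt25, Krt26, Krt28 and Krt73. CTTTGA occurred in 6 of 18 (33.3%), against 16.0% of all promoters. In the type I shaft genes Krt31, Krt32, Krt33b and Krt34 it began at nearly the same distance, 244, 247, 247 and 240 bases before the start. The promoter of Tchh held CTTTGA on both strands and no TATAAA. Most of these promoters belong to related keratin genes of the same clusters, so their matches and positions are not independent of each other. A match is a stretch of letters only, and binding was not measured.

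Skin given tdTomato-positive marrow had lower mean levels of all 27 genes than skin given tdTomato-negative marrow. The levels varied widely within each group, and no gene passed the test. The 27 genes together took 0.194, 0.0381, 0.0663 and 1.01% of all TPM (RSEM's abundance per transcript length, scaled to the same total in every sample) in positive replicates 1 to 4. In the negative samples they took 0.194, 1.72, 3.04, 1.83, 2.07, 2.31 and 0.0267% in replicates 1 to 7. The share averaged 0.327% ± 0.46 (SD, n = 4) over positive and 1.6% ± 1.1 (SD, n = 7) over negative samples. Positive replicates 1 to 3 and negative replicates 1 and 7 were low, positive replicate 4 stood between, and negative replicates 2 to 6 were high, so the groups overlapped. In whole skin, fewer follicle cells of a type and less RNA per cell cannot be told apart.

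**Figure D1:**
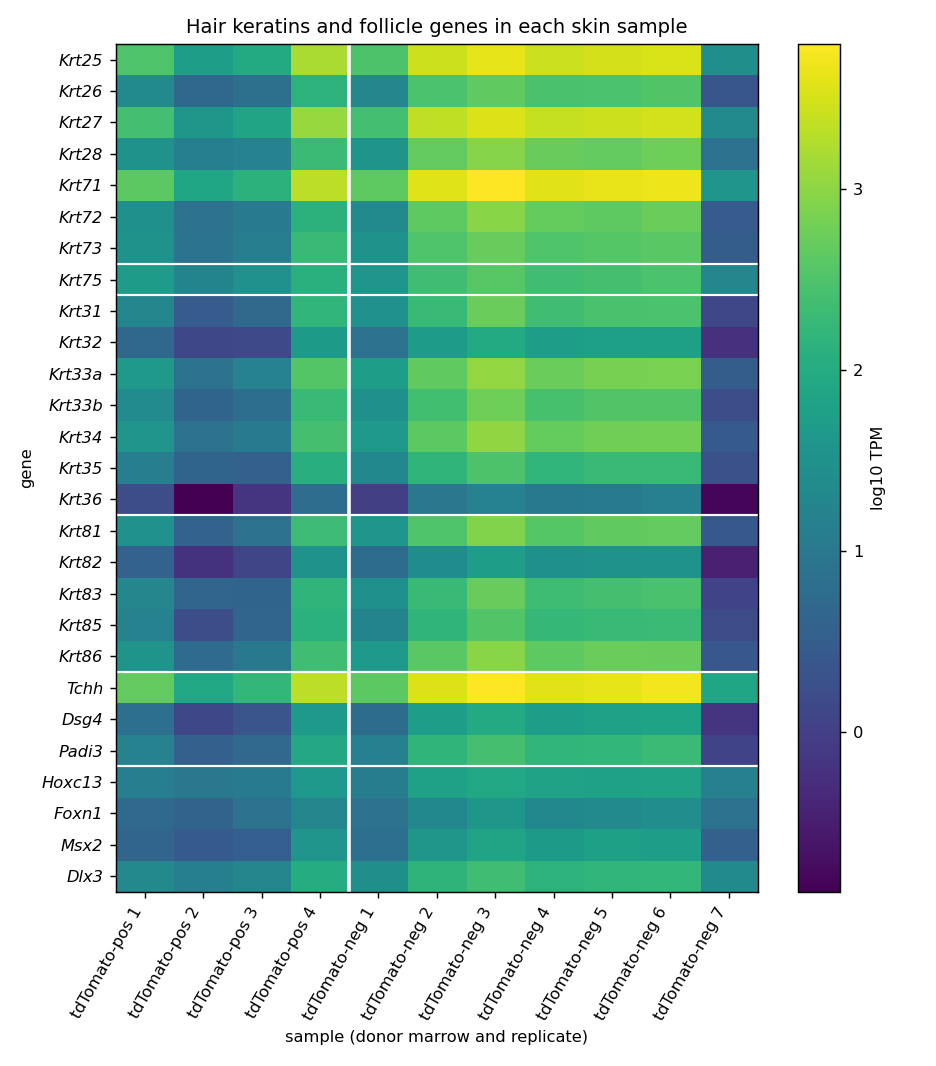
Heat map of log10 TPM of the 27 genes (rows, grouped by role with white lines between roles) in each of the 11 samples (columns, the 4 tdTomato-positive samples left of the white line and the 7 tdTomato-negative samples right of it). Positive replicates 1 to 3 and negative replicates 1 and 7 are dark across nearly all rows, and negative replicate 3 is the brightest in 27 of 27 rows.

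The order of the samples was nearly the same for every gene. Negative replicate 3 had the highest TPM in 27 of 27 genes. Positive replicates 1 to 3 and negative replicates 1 and 7 lay below each of negative replicates 2 to 6 in 27 of 27 genes. The lowest sample was negative replicate 7 in 21 genes and positive replicate 2 in the other 6 (Krt75, Krt36, Hoxc13, Foxn1, Msx2 and Dlx3). Positive replicate 4 was the highest positive sample in 27 of 27 genes and lay below each of negative replicates 2 to 6 in 26. The exception was Krt82, where its 33.1 TPM was 113% of the negative median.

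The test was edgeR's quasi-likelihood test over 14588 genes, positive minus negative, and a gene was called at a Benjamini-Hochberg adjusted p under 0.05. Of the 27 genes 0 were called, as were 0% of all genes tested. At an unadjusted p under 0.05, 7 of 27 were lower in the positive group, against 9.73% of all genes, and 0 were higher, against 7.05%. The 7 were Krt28, Krt72, Krt75, Krt36, Hoxc13, Foxn1 and Dlx3. The fitted log2 fold change was below 0 in 27 of 27 genes, against 51.4% of all genes, with a median of -2.32, against -0.01 over all genes. The genes share a sample order, described above, so these directions are not independent of each other. Without positive replicate 4 the median was -4.12 and 0 genes were called. That sample was the highest positive one in 27 of 27 genes, so its removal must lower the estimates. Without positive replicate 2 or 3 instead, the median was -1.93. In TMM-scaled counts per library total (CPM), the groups were apart in 0 of 27 genes, against 1.06% of all genes with every positive sample below every negative one. In 21 of 27 genes the whole positive range lay inside the negative range, against 31.2% of all genes. Limma-voom with sample quality weights called 9 of the 27 lower, against 7.62% of all genes, and 0 higher, against 6.73%. DESeq2 called 0 of the 27, against 0.142% of its genes lower and 0.176% higher, and limma-voom and limma-trend called 0 as well. Whether the numbered samples are separate animals is not stated in the labels, and p-values therefore refer to differences between samples, which may in part be technical.

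**Figure D2:**
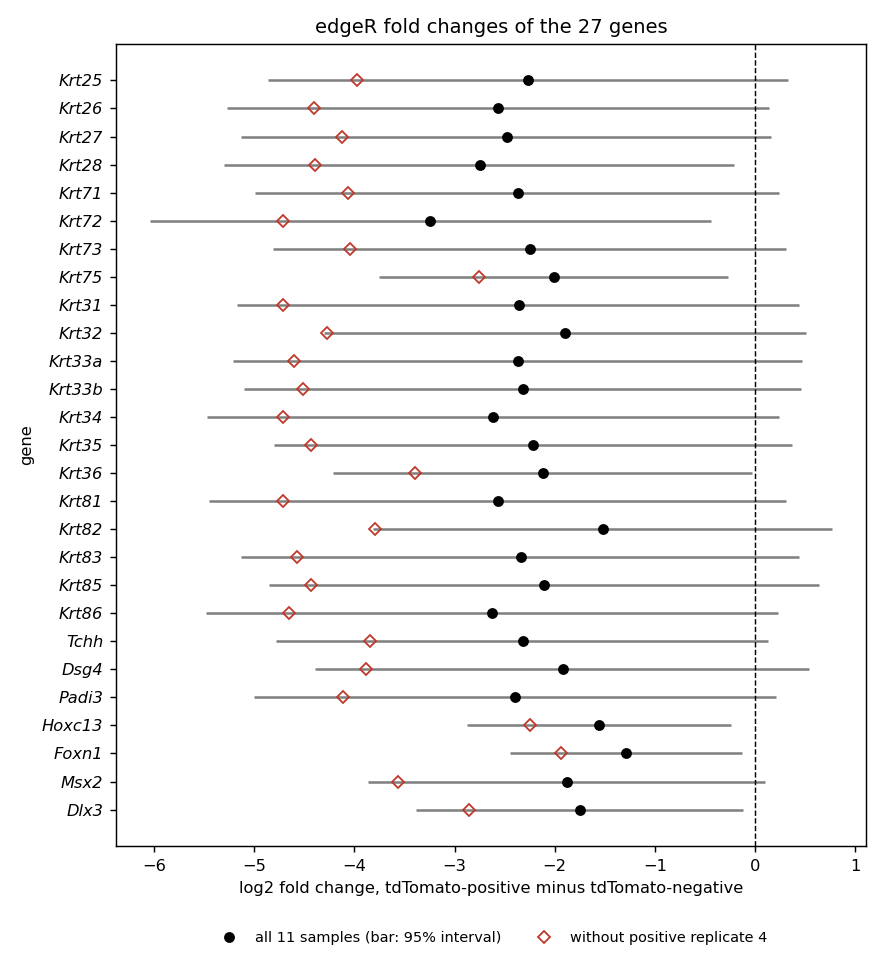
Fitted log2 fold change of each of the 27 genes (horizontal axis, tdTomato-positive minus tdTomato-negative) in edgeR with all 11 samples (black points, bars are 95% intervals) and without positive replicate 4 (red open diamonds). All 27 points lie below 0 and 20 of the intervals cross 0. Positive replicate 4 was the highest positive sample in all 27 genes, so without it every estimate is further from 0.

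Among the keratins, 3 of the inner root sheath, Krt71, Krt25 and Krt27, were the most abundant per length. Krt71, the type II keratin of all 3 inner root sheath layers, had 416, 78.2, 132 and 2144 TPM in positive replicates 1 to 4, against a lowest of 36.0, a median of 3870 and a highest of 6311 TPM in the 7 negative samples. The positive range lay inside the negative one. Krt71 had a log2 fold change of -2.37 ± 1.2 (SE; edgeR adjusted p = 0.332), and its 95% interval ran from -4.99 to 0.24. Krt25 and Krt27, type I keratins of the same layers, followed with medians over the 11 samples of 1617 and 1187 TPM, and log2 fold changes of -2.27 and -2.48. Krt25 ran from 53.0 to 1617 TPM in the positive and from 27.6 to 4151 TPM in the negative samples. Krt27 ran from 39.9 to 1187 TPM in the positive and from 21.4 to 3577 TPM in the negative samples.

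Krt26, Krt28, Krt72 and Krt73 were less abundant, with medians of 136 to 206 TPM over the 11 samples. Krt72, a type II keratin of the inner root sheath cuticle, had the lowest fold change of the 27 genes, a log2 value of -3.24 ± 1.28 (SE; edgeR adjusted p = 0.263). It had 29.8, 7.2, 11.5 and 136 TPM in the positive samples, against a lowest of 2.91, a median of 441 and a highest of 921 TPM in the negative samples. The positive samples lay within the negative range. Krt28, a type I keratin, had a log2 fold change of -2.75 (edgeR adjusted p = 0.276), with 13.9 to 206 TPM in the positive and 7.53 to 905 TPM in the negative samples. Krt26 and Krt73, type I and type II keratins of the inner root sheath cuticle, stood at -2.57 and -2.25 in log2 fold change. Of the 7 inner root sheath keratins, 0 were called and 2 were lower at an unadjusted p under 0.05, against 9.73% of all genes. Their median log2 fold change was -2.48, or -4.12 without positive replicate 4.

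Krt75 is the type II keratin of the companion layer, a single sheet of cells between the inner and outer root sheaths. It had 47.8, 17.0, 30.6 and 123 TPM in the positive samples, against a lowest of 19.5, a median of 230 and a highest of 385 TPM in the negative samples. Negative replicate 7, with 19.5 TPM, and negative replicate 1, with 38.3 TPM, lay among the positive samples. Krt75 had a log2 fold change of -2.01 ± 0.8 (SE; edgeR adjusted p = 0.263). Between the extremes of the negative group Krt75 varied less than the inner root sheath keratins: negative replicate 3 had 19.7 times the TPM of negative replicate 7, where the inner root sheath keratins had 120 to 317 times. These ratios are those of 2 libraries and carry no test.

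The type I shaft keratins had a median log2 fold change of -2.32, with 0 of 7 called. At an unadjusted p under 0.05, 1 of them, Krt36, was lower, against 9.73% of all genes. Krt33a, a keratin of the cortex and the most abundant type I shaft keratin per length, had 42.2, 7.36, 15.4 and 355 TPM in the positive samples, against a lowest of 3.13, a median of 537 and a highest of 1092 TPM in the negative samples. All 4 positive samples lay inside the negative range, and only negative replicates 1 and 7 of the negative group, with 54.7 and 3.13 TPM, lay below positive replicate 4. Its log2 fold change was -2.37 ± 1.3 (SE; edgeR adjusted p = 0.364).

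The other cortex keratins of this type, Krt31, Krt33b and Krt34, had medians of 161, 184 and 266 TPM over the 11 samples, and log2 fold changes of -2.36, -2.32 and -2.62. Krt31 ran from 2.98 to 161 TPM in the positive and from 1.31 to 531 TPM in the negative samples. Krt33b ran from 4.14 to 184 TPM in the positive and from 1.64 to 572 TPM in the negative samples. Krt35, an early keratin of the matrix and cuticle, had a log2 fold change of -2.22, and Krt32, a cuticle keratin, one of -1.9. Krt36 was the least abundant of the 27 genes, with a median of 6.14 TPM and with 1 count each in positive replicate 2 and negative replicate 7, which is under the 3 counts that a count of 0 allows. Its log2 fold change of -2.12 (edgeR adjusted p = 0.293) rests on few reads in the low samples.

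The type II shaft keratins are the partners of these, and changes in the human counterparts of Krt81, Krt83 and Krt86 cause the brittle hair of monilethrix. Krt86 had 34.5, 5.76, 10.4 and 232 TPM in the positive samples, against a lowest of 2.43, a median of 435 and a highest of 935 TPM in the negative samples. As for Krt33a, the positive samples lay inside the negative range. The log2 fold change of Krt86 was -2.63 ± 1.31 (SE; edgeR adjusted p = 0.326). Krt81, Krt83 and Krt85, the last a keratin of the shaft's precursor cells, were at -2.57, -2.34 and -2.11 in log2 fold change. Krt82, a cuticle keratin, had -1.52, the smallest among the keratins, with an edgeR adjusted p of 0.457, and its 95% interval ran from -3.81 to 0.77. Of the 5 genes 0 were called and 0 had an unadjusted p under 0.05, against 9.73% of all genes lower and 7.05% higher. Their median was -2.34, or -4.57 without positive replicate 4.

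**Figure D3:**
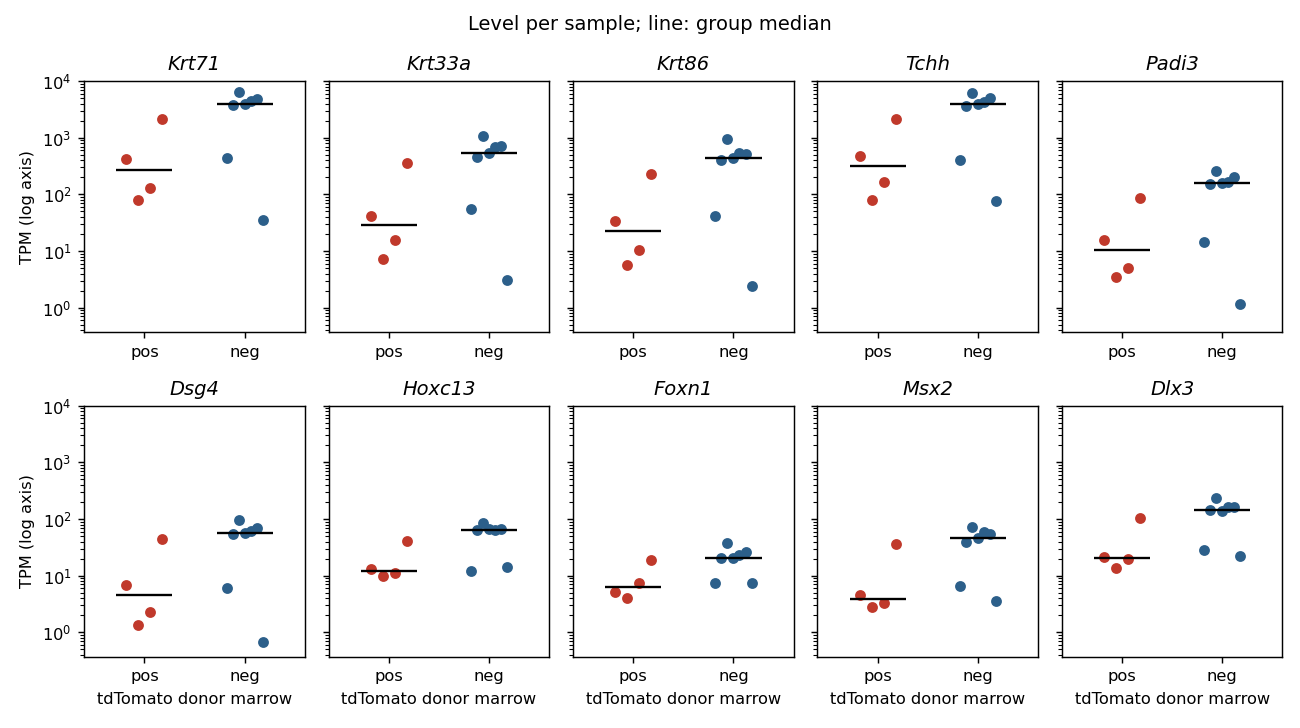
TPM (log axis) of 10 of the genes in each sample, tdTomato-positive (pos, 4 red points) left and tdTomato-negative (neg, 7 blue points) right, with the group median as a line; points run in replicate order within each group. In every panel 1 positive sample, replicate 4, stands above the other positive samples, and 2 negative samples, replicates 1 and 7, stand below the other negative samples.

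Type I and type II transcripts kept a near constant proportion while their levels differed widely between samples. Summed over the inner root sheath, type I keratins had 1.25 ± 0.0548 (SD, n = 4) times the TPM of type II keratins over positive samples and 1.27 ± 0.0684 (SD, n = 7) times over negative samples, and the ratio lay between 1.17 and 1.4 in all 11. The summed TPM of type I inner root sheath keratins meanwhile ran from 112 to 3146 in the positive and from 59.0 to 9085 in the negative samples. In the shaft the type I to type II ratio was 1.53 ± 0.143 (SD, n = 4) over positive samples and 1.43 ± 0.0423 (SD, n = 7) over negative samples, between 1.35 and 1.67. The summed TPM of the type I shaft keratins ran from 27.5 to 1131 in the positive and from 11.5 to 3645 in the negative samples. These ratios describe the sums of the listed genes and were not tested between the groups.

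**Figure D4:**
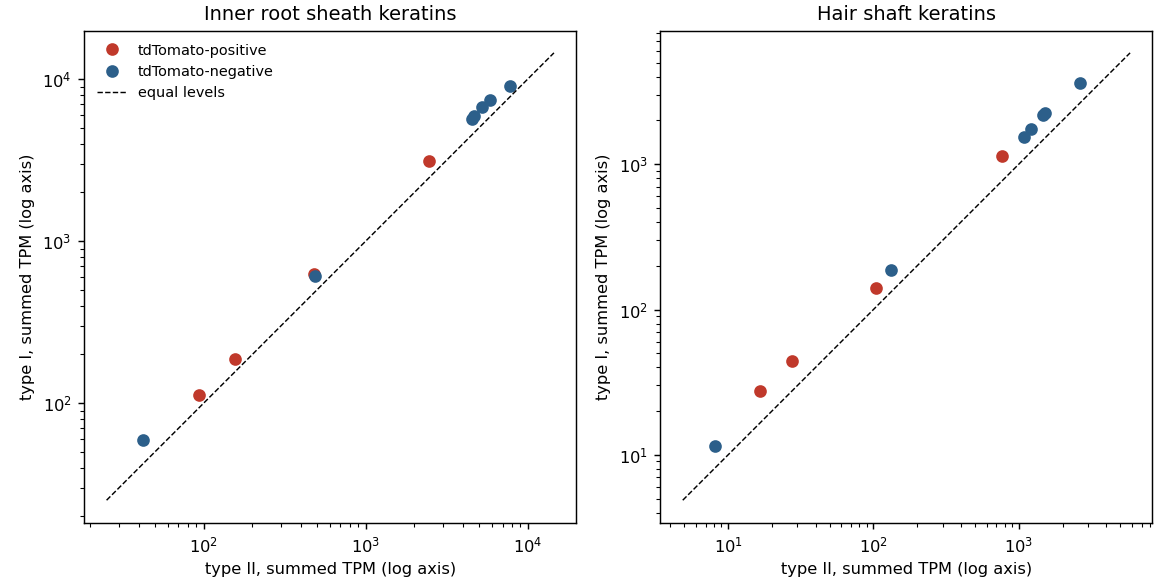
Summed TPM of type I against type II keratins (both log axes) of the inner root sheath (left) and of the shaft (right), 1 point per sample, red tdTomato-positive and blue tdTomato-negative, with a dashed line at equal levels. The 11 points run just above the dashed line over the whole range, between 1.17 and 1.4 times for the sheath and between 1.35 and 1.67 times for the shaft.

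The proportion of shaft to sheath transcripts varied more. Shaft keratins had 0.221, 0.214, 0.209 and 0.336 times the TPM of inner root sheath keratins in positive replicates 1 to 4. In the negative group the ratio had a lowest value of 0.194 in replicate 7 and a highest of 0.374 in replicate 3, the samples with the lowest and the highest summed levels of both. Positive replicate 4, the positive sample with the highest summed level of both, also had the highest ratio of its group. Within the sheath, Krt27 had 0.752 ± 0.0334 (SD, n = 4) times the TPM of Krt25 in the positive and 0.842 ± 0.0474 (SD, n = 7) times in the negative samples, with overlap between 0.775 and 0.799. These genes share 50-base stretches, 10.4% of those in the transcripts of Krt25 and 11.1% of those of Krt27, so that reads can be divided between them.

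Tchh encodes trichohyalin, which links keratin filaments in the inner root sheath and the medulla. It had 479, 79.2, 167 and 2121 TPM in the positive samples, against a lowest of 77.8, a median of 3939 and a highest of 6131 TPM in the negative samples. Negative replicate 7 lay just below positive replicate 2, and negative replicate 1, with 413 TPM, below positive replicate 1. The log2 fold change of Tchh was -2.32 ± 1.13 (SE; edgeR adjusted p = 0.317). As a long transcript it took 0.178, 0.0299, 0.0571 and 0.761% of the expected counts in the positive libraries, and 0.0262 to 2.35% in the negative libraries. Its level followed that of Krt71, with a ratio of Tchh to Krt71 between 0.95 and 1.26 in 10 samples. In negative replicate 7, the sample with the lowest Krt71, the ratio was 2.16.

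Padi3 encodes a peptidylarginine deiminase that turns arginines of trichohyalin into citrulline. It had 15.6, 3.53, 5.12 and 85.7 TPM in the positive samples, against a lowest of 1.15, a median of 157 and a highest of 257 TPM in the negative samples. Its log2 fold change was -2.4 ± 1.2 (SE; edgeR adjusted p = 0.326). Dsg4 encodes desmoglein 4, a cadherin of desmosomes in the hair shaft, whose loss gives mice lanceolate hair, and lies on chromosome 18 from 20436175 to 20471821. It had 6.77, 1.36, 2.26 and 45.2 TPM in the positive samples, against a lowest of 0.67, a median of 56.2 and a highest of 96.2 TPM in the negative samples. For both genes the positive range lay inside the negative range. Dsg4 had a log2 fold change of -1.92 ± 1.13 (SE; edgeR adjusted p = 0.392).

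The 4 transcription factors had a median log2 fold change of -1.65, or -2.55 without positive replicate 4. At an unadjusted p under 0.05, 3 of 4 were lower, against 9.73% of all genes. Hoxc13 encodes a homeodomain factor that binds hair keratin promoters. It had 13.1, 9.96, 11.3 and 41.1 TPM in the positive samples, against a lowest of 12.0, a median of 63.7 and a highest of 85.2 TPM in the negative samples. Only negative replicates 1 and 7, with 12.0 and 14.0 TPM, lay in the positive range. Its log2 fold change was -1.56 ± 0.61 (SE; edgeR adjusted p = 0.26), and its p was the smallest of the 27 genes.

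Foxn1, the gene mutated in nude mice, had 5.14, 4.0, 7.38 and 18.7 TPM in the positive samples, against a lowest of 7.45, a median of 20.4 and a highest of 38.5 TPM in the negative samples. Its positive replicates 1 to 3 lay below every negative sample. Without positive replicate 4 Foxn1 was the 1 gene of the 27 whose groups were apart in CPM, against 3.13% of the 14708 genes tested in that way with the positive samples below. Leaving out the highest positive sample favours such a separation. The margin was narrow, with 13.8 CPM in positive replicate 3 against 14 CPM in negative replicates 1 and 7. The log2 fold change of Foxn1 was -1.29 ± 0.53 (SE; edgeR adjusted p = 0.269), the smallest in size of the 27, and -1.94 without positive replicate 4.

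Dlx3 encodes a homeodomain factor needed for shaft and sheath differentiation. It had 21.1, 13.8, 19.4 and 105 TPM in the positive samples, against a lowest of 21.9, a median of 143 and a highest of 232 TPM in the negative samples. Dlx3 had a log2 fold change of -1.75 ± 0.75 (SE; edgeR adjusted p = 0.28). Only negative replicates 1 and 7 of the negative samples lay below positive replicate 4. Its positive replicates 1 to 3, at 13.8 to 21.1 TPM, lay just below the lowest negative sample, and overlapped the negative group in CPM. Msx2, a homeobox gene of the matrix whose loss in mice gives cyclic hair loss, had 4.47, 2.79, 3.28 and 36.4 TPM in the positive samples, against a lowest of 3.59, a median of 46.1 and a highest of 72.0 TPM in the negative samples. Its log2 fold change was -1.88 ± 0.91 (SE; edgeR adjusted p = 0.316).

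The transcription factors and Krt75 differed less between high and low samples than the other structural genes. Between negative replicates 3 and 7, Foxn1 differed 5.12-fold, Hoxc13 6.1-fold, Dlx3 10.6-fold and Msx2 20.1-fold, and Krt75 differed 19.7-fold, whereas Tchh differed 78.8-fold, Dsg4 144-fold, Padi3 223-fold, Krt31 405-fold and Krt83 448-fold. Between positive replicates 4 and 2, the factors differed 4.13-fold to 13.1-fold, Krt75 7.26-fold, the inner root sheath keratins 14.8-fold to 30.5-fold, the type I shaft keratins 26.7-fold to 54.1-fold and the type II shaft keratins 34.6-fold to 74.0-fold. The summed TPM of the 4 factors was 0.0397, 0.149, 0.12 and 0.0359 times that of the inner root sheath keratins in positive replicates 1 to 4. In the negative group that ratio was between 0.0234 and 0.0259 in replicates 2 to 6, 0.0495 in replicate 1 and 0.465 in replicate 7. Low counts limit the larger ratios: negative replicate 7 had 8.23 expected counts of Krt31 and 8.51 of Krt83.

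Ordered by median TPM over the 11 samples, Krt71 (2144) and Tchh (2121) led, followed by Krt25 (1617), Krt27 (1187), Krt33a (355) and Krt34 (266). Krt71 exceeded Tchh in 5 of 11 samples, so these neighbours have no fixed order, whereas Tchh exceeded Krt25 in 11 of 11. Tchh, Krt71, Krt25 and Krt27 together made up 61.1 to 75.4% of the TPM of the 27 genes in every sample. The least abundant by median TPM were Msx2 (36.4), Krt82 (24.9), Foxn1 (18.7) and Krt36 (6.14). Krt86 (232) exceeded Krt81 (213) in 10 of 11 samples, and Krt81 exceeded the next, Krt28 (206), in 2 of 11. The pair Krt86 and Krt81 is the least certain of these, since 40.5% of the 50-base stretches of Krt86 and 39.3% of those of Krt81 occur in other members. Krt34 (33.1%), Krt31 (28.1%), Krt33b (24.2%), Krt33a (21.9%) and Krt83 (21.0%) also share such stretches, so RSEM may have divided reads between them. By contrast, the expected counts of Tchh, Dsg4, Padi3 and the 4 factors were whole in all 11 samples, within 0.005. No transcript of Krt85 was found for this search, so the stretches it shares are not known or included. Its expected counts were not whole in 11 of 11 samples.

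Other keratins of the same clusters, some between the members and most outside their stretches, had values that spread more widely and in part overlapped those of the members. On chromosome 11, the 11 members had log2 fold changes between -2.75 and -1.9, with a median of -2.36, and the 10 other tested keratins with a position there had -2.16 to 1.13, with a median of -0.17. Krt10, the suprabasal epidermal keratin that follows Krt28 in chromosomal order, had 0.25. On chromosome 15, the 8 members in the table had log2 fold changes of -3.24 to -1.52 with a median of -2.35, and the 12 other tested keratins with a position there, Krt18 among them, had -2.4 to 0.66 with a median of 0.025. Krt5, the basal epidermal keratin before Krt71 in this order, had 0.09. Among the other keratins, 3 on each chromosome were lower at an unadjusted edgeR p under 0.05, against 9.73% of all genes. They were Krt23, Krt19 and Krt17 on chromosome 11, and Krt84, Krt8 and Krt18 on chromosome 15. None of them had an adjusted p under 0.05. The other keratins with values in the members' range were Krt39 (-2.16) on chromosome 11, and Krt84 (-2.3), Krt8 (-2.4) and Krt18 (-2.4) on chromosome 15, while Krt19 (-1.75) and Krt40 (-1.72) stood just above the chromosome 11 members. Krt74, given with the other follicle genes, was not in the gene table and is not among these.

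**Figure D5:**
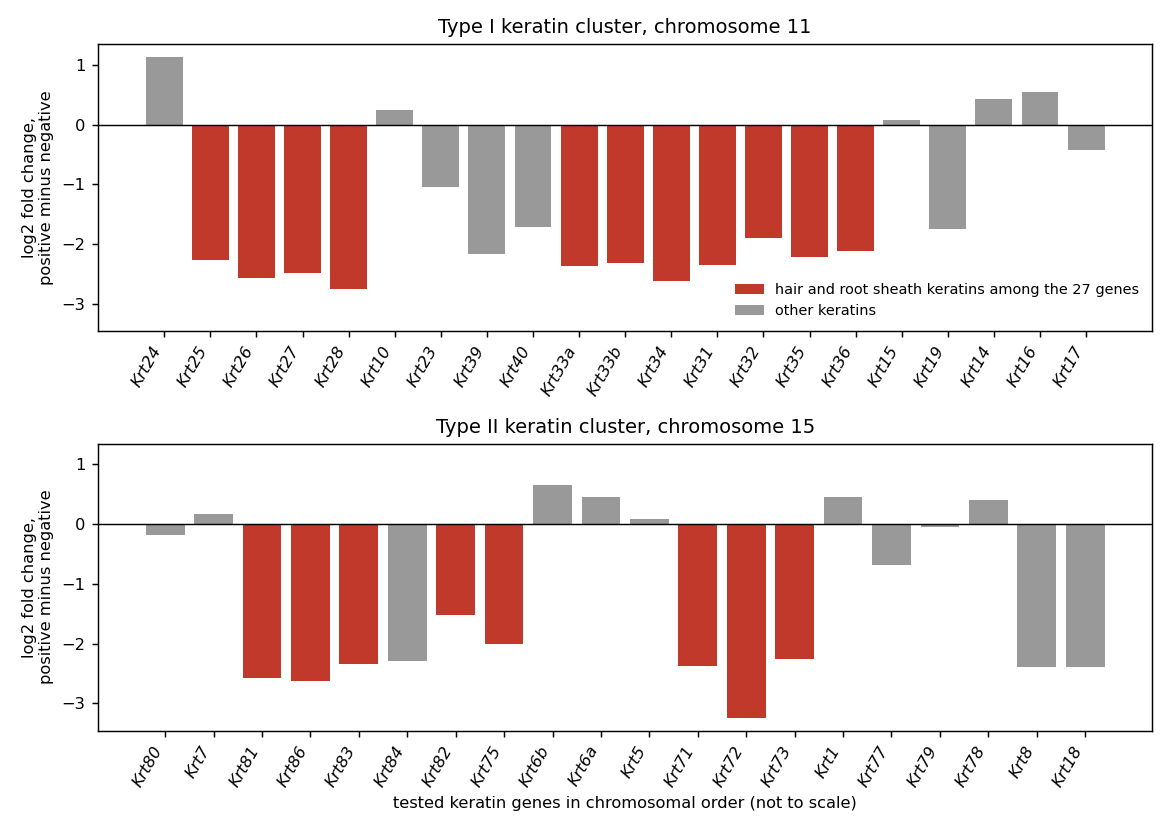
Fitted log2 fold change (vertical axis, tdTomato-positive minus tdTomato-negative, edgeR) of each tested keratin gene in chromosomal order, not to scale, in the type I cluster (top) and the type II cluster (bottom), red for the keratins among the 27 genes and gray for other keratins. The red bars all lie between -3.24 and -1.52, while gray bars run from below -2, as for Krt84 (-2.3), Krt39 (-2.16), Krt8 and Krt18 (both -2.4), to near or above 0, as for Krt10 (0.25) and Krt5 (0.09).

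Other genes of hair formation were taken from lists made by role. Of 10 other follicle keratins tested, 0 were called and 3 were lower at an unadjusted p under 0.05, against 9.73% of all genes. Their median log2 fold change was -0.3, but the list was mixed, with values from -2.49 to 0.66. In 7 of the 10 the value was below 0, against 51.4% of all genes, and in 3 it was above 0. Krt74, the remaining inner root sheath type II keratin, had 0.24 to 2.06 TPM in the positive and 0.16 to 8.62 TPM in the negative samples, with a log2 fold change of -2.49 ± 0.82 (SE; edgeR adjusted p = 0.248). Krt84, a hair-type type II keratin, had -2.3 (edgeR adjusted p = 0.25). Krt17, of the outer root sheath and activated epidermis, had -0.42 (edgeR adjusted p = 0.248). The abundant keratins of outer root sheath and stressed epidermis had values above 0: Krt6b 0.66, Krt16 0.55 and Krt6a 0.45. Their TPM was lowest in negative replicate 3, the sample in which the 27 genes were highest, with 560 for Krt6b, 542 for Krt16 and 1047 for Krt6a.

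Of 23 genes for assembly and crosslinking of sheath and shaft, 0 were called, and the median log2 fold change was -0.43. The list was mixed, with values from -3.05 to 0.71, so its median does not describe every gene in it. In 17 of the 23 the log2 fold change was below 0, against 51.4% of all genes, and in 6 it was above 0. At an unadjusted p under 0.05, 6 were lower, against 9.73% of all genes, and 1 was higher, against 7.05%. The gene on the higher side was Lipk, a lipase, with 0.42. Padi4, another arginine deiminase, had -1.56 (edgeR adjusted p = 0.248), Tgm3, the transglutaminase that crosslinks trichohyalin and keratins, had -1.01 (edgeR adjusted p = 0.248), and Capn12, a calpain of the follicle, had -1.94 (edgeR adjusted p = 0.248). The most abundant were Prr9, a small proline-rich protein gene, with -2.23, S100a3, a calcium-binding protein of the hair cuticle, with -2.1, and Ctsl, a lysosomal protease, with -0.05. S100a3 repeated the order of the 27 genes, with 85.5, 11.4, 26.8 and 780 TPM in the positive samples, and 6.12 in negative replicate 7 and 2015 in negative replicate 3. Tgm3, with 10.8 to 24.3 TPM in the positive and 22.0 to 61.4 TPM in the negative samples, did not: positive replicate 4, with 20.8 TPM, lay below positive replicate 1.

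Of 34 follicle regulators tested, 0 were called and 15 were lower at an unadjusted p under 0.05, against 9.73% of all genes. In 29 the log2 fold change was below 0, against 51.4% of all genes, and the median was -0.62. Ovol1, a zinc finger factor of epidermal and hair differentiation, had 39.1, 30.6, 41.3 and 47.7 TPM in the positive samples, against a lowest of 48.4, a median of 65.5 and a highest of 76.6 TPM in the negative samples. The groups did not overlap, and its log2 fold change was -0.7 ± 0.16 (SE; edgeR adjusted p = 0.248). Over all genes, 1.06% had every positive sample below every negative one in CPM. Foxq1, a forkhead factor of the shaft medulla and the gene of the satin mouse, had 8.54, 13.0, 17.3 and 16.0 TPM in the positive samples, against a lowest of 17.5 and a highest of 41.5 TPM in the negative samples. The groups were again apart, with a log2 fold change of -1.03 ± 0.26 (SE; edgeR adjusted p = 0.248). Ovol1 and Foxq1 are named for having the smallest p of this list, a choice that favours genes whose groups are apart. Sox9, a factor of the outer root sheath and stem cells, had -0.73 (edgeR adjusted p = 0.248). Among the most abundant regulators, Hr, the corepressor gene hairless, had -0.21, Gata3, an inner root sheath factor, had -0.44, and Vdr, the receptor of MC903, had -0.48. DESeq2 called Ovol1, Foxq1 and Padi4 lower, with adjusted p of 0.0262, 0.0405 and 0.0449.

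Library totals ran from 7190752 to 9749842 expected counts. As a sum, epidermal markers moved in a different way from the 27 genes. The summed TPM of 11 interfollicular epidermis markers was 16532 to 28912 in the positive and 9130 to 30457 in the negative samples. It was highest in negative replicate 7 and lowest in negative replicate 3, where the 27 genes were highest. Abundant genes such as Krt14 (mean 8160 TPM) weigh most in this sum. Krt77 differed, with 273 TPM in negative replicate 3 and 10.7 to 78.7 TPM in the other samples. The 10 melanocyte markers, which include genes of hair pigmentation, summed to 62.3 to 113 TPM in the positive samples, and to 67.2 in negative replicate 7, 131 in negative replicate 1 and 136 to 271 in negative replicates 2 to 6. They had a median log2 fold change of -1.47, with 0 of 10 called. At an unadjusted p under 0.05, 7 of 10 were lower, against 9.73% of all genes. Mlana and Oca2 were at 0 in some samples. The 10 dermal papilla markers summed to 123 to 237 TPM in the positive and 65.9 to 154 TPM in the negative samples. Of 9 tested, 1 was lower (Corin, -1.45) and 2 higher (Crabp1, 0.94, and Inhba, 0.79) at an unadjusted edgeR p under 0.05. The 9 bulge stem cell markers summed to 691 to 1240 TPM in positive and 633 to 1170 TPM in negative samples. By the same threshold 3 were lower (Krt19, -1.75, Cdh3, -0.61, and Tcf7l1, -0.59) and 1 higher (Cd34, 0.23). In both lists 0 were called. The 10 cell division markers summed to 221 to 338 TPM in positive and 123 to 348 TPM in negative samples. Over all genes, 9.73% were lower and 7.05% higher at that threshold. The 9 macrophage markers summed to 906 to 2348 TPM in the positive and 775 to 1327 TPM in the negative samples. Of these, 7 of 9 were higher at an unadjusted p under 0.05, against 7.05% of all genes, and 0 of 9 were called. The sums of 10 sebaceous, 8 fibroblast, 8 muscle and 8 adipocyte markers also overlapped between the groups, and their median log2 fold changes were -0.05, 0.39, 0.4 and 0.42. At an unadjusted p under 0.05, 1 of the 9 tested sebaceous markers was lower, against 9.73% of all genes. By the same threshold 3 of 8 fibroblast, 0 of 8 muscle and 4 of 8 adipocyte markers were higher, against 7.05%, with 0 called. The groups were apart for the adipocyte marker Adipoq, singled out after its values were seen, with the positive samples higher, as in 0.61% of all genes. No marker of these lists was at 0 in all samples, and their part in the values of the 27 genes was not tested.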

How the data were processed

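Total RNA of back skin was sequenced in 11 samples, 4 with tdTomato-positive and 7 with tdTomato-negative donor marrow, as the labels give them. Ribosomal RNA was removed with RNase H, per the labels' protocols, and bcl2fastq, Trim Galore, RSEM and GRCm38 are named in the submitters' processing notes. Tool versions, the aligner and strandedness were not named in these sources. The authors deposited expected counts, RSEM's estimated counts per gene without normalization, in which reads that map to several genes are divided. Their deposited TPM are per effective length. Effective lengths served for 1 alternative, and FPKM was not used.

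Expected counts were rounded. Of 24411 genes, 14588 passed filterByExpr (minimum count 10, minimum total 15), all 27 described here among them. Samples were scaled by TMM and tested with edgeR 4.0.16 (glmQLFit in legacy mode, glmQLFTest; R 4.3.3), with donor marrow as the only term. P-values were adjusted over all genes tested by Benjamini-Hochberg. Each SE is the size of the log2 fold change over the root of F. DESeq2 1.42.0, which left 4981 adjusted p as NA, limma 3.58.1 (voom, voom with quality weights, and trend on log2(TPM + 1)), other scalings and filters, a length offset, a replicate block and each sample left out in turn were the alternatives. The script was tested on simulated data. Limits of 3 counts and intervals cover counting error or the spread of samples only. Shared stretches are identical 50-base stretches of GENCODE vM21 transcripts. Coordinates and promoters are of RefSeq.

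The 27 genes, the other gene lists and the tests were chosen with earlier results of these data known. Per-sample values are given for the gene with the highest median TPM of each keratin role, for Krt75, and for every other protein and transcription factor gene, and Krt72 was added after its values were seen. Of each list of other follicle genes, the 3 with the highest mean TPM and the 3 with the smallest edgeR p are named, beside Lipk, chosen as the only gene on the higher side.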

Additional observations from a re-analysis of the deposited data

Results flagged for a closer look

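On untransformed TPM, positive replicate 4 stood further from the other positive samples than Dixon's 95% critical value for 4 samples in 21 of the 27 genes. On this scale a high value stands out more readily than a low one, and log values were not looked at. Of 54 sets of values looked at, the 27 genes in each group, these 21 passed, and chance passes about 1 in 20, or 2.7 sets. The genes share their sample order, so these are not separate events. No set of the negative group passed the value for 7 samples, although negative replicates 1 and 7 lay far below the others. In positive replicate 4, the TPM of the inner root sheath keratins concerned was 1617 for Krt25, 137 for Krt26, 206 for Krt28, 2144 for Krt71 and 199 for Krt73. The type I shaft keratins had 161 for Krt31, 46.2 for Krt32, 355 for Krt33a, 184 for Krt33b, 266 for Krt34 and 113 for Krt35. The type II shaft keratins had 213 for Krt81, 33.1 for Krt82, 153 for Krt83, 130 for Krt85 and 232 for Krt86. Among the other genes, Dsg4 had 45.2, Padi3 85.7, Hoxc13 41.1, Msx2 36.4 and Dlx3 105. Each of these values lay above the 3 other positive samples.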

How the results depend on the processing

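Across the scalings, filters and tools run on all samples, the median log2 fold change of the 27 genes lay between -2.53 (limma-voom) and -2.27 (library totals alone), except -3 with a replicate block and -3.93 with quality-weighted limma-voom. Over the alternatives, the fold change of every one of the 27 genes kept its sign. Quality-weighted limma-voom was the only alternative that called any of them. It called 9 lower (Krt25, Krt27, Krt28, Krt71, Krt75, Tchh, Hoxc13, Foxn1 and Dlx3), with adjusted p of 0.0239 to 0.0407. Its sample weights were 0.834, 2.35, 0.544 and 0.728 in positive replicates 1 to 4. In negative replicates 1 to 7 they were 0.45, 1.44, 0.591, 1.91, 1.98, 1.93 and 0.461. The smallest adjusted p elsewhere was 0.11. Among the other follicle genes, of which 10, 23 and 34 were tested in the 3 lists, that tool called 23 lower and 2 higher, against 7.62% and 6.73% of all genes, and DESeq2 called 3 lower, against 0.142%; edgeR called 0, and the cause was not tested.

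Leaving out 1 sample at a time, the median ranged from -4.12 (without positive replicate 4) to -1.93 (without positive replicate 2 or 3), with 0 genes called each time. The number of the 27 genes whose groups did not overlap ranged from 0 to 1. The mean share of TPM ranged from 0.0995% to 0.423% in the positive and from 1.36% to 1.86% in the negative group. The labels state no pairing by replicate number. Same-numbered samples correlated at -0.04, -0.14, -0.05 and 0.34 in their deviations from the group means, and differently numbered ones at -0.67 to 0.53. So few values cannot decide whether samples were paired. The fit with a replicate block called 0 genes. Depth limits Krt36 and Krt82, with 1 and 3 counts in negative replicate 7, and Krt32, Krt31 and Krt83 with 4.0, 8.23 and 8.51 in that sample.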
